A study of Homo sapiens with 12 samples.

Results

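The 36 genes described here encode the machinery that licenses, starts and carries out DNA replication, together with regulators of the passage from G1 into S phase. They were listed by name as replication and G1/S genes, and earlier results of these data were known when they were chosen. Each was read from the row of the highest mean among the rows that carry its symbol. They are 36 of 22395 named genes on the arrays, and 33 of the 36 passed the filter for tested genes, a mean of at least 5 on the deposited log2 scale over 12 arrays, as 5820 genes did. The 3 others, POLE2, E2F2 and CLSPN, are given by their values. That mean takes in the treated arrays, so the 33 genes are those that were high enough on average, and their counts do not speak for all 36.

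The cells were NCI-H1975, an established line from a human lung adenocarcinoma grown in culture, and their RNA was read on Affymetrix whole-transcript arrays with probes along the exons of each gene. All cells carried mutant EGFR with L858R and T790M, per the labels. The arms were the combination of 1 µM erlotinib and 3 µM quinacrine at 6, 12, 24 and 48 h (4 arrays), 3 µM quinacrine at 6, 12 and 24 h (3 arrays), 1 µM erlotinib at 6, 12, 24 and 48 h (4 arrays) and untreated cells with no time given (1 array). No condition had a replicate, the labels do not tell whether separate cultures were used, and p-values therefore measure only the spread between these arrays, with n counting time points. Erlotinib inhibits the EGFR tyrosine kinase, T790M is known to make the receptor resistant to it, and quinacrine is an acridine once used against malaria that intercalates into DNA.

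Replication starts at origins that are licensed in G1, when CDC6 and CDT1 help to load the MCM2 to MCM7 ring, the core of the replicative helicase. At the start of S phase CDC45 and the GINS complex join the ring, and polymerases, the PCNA clamp and enzymes that make deoxynucleotides then support synthesis while histone chaperones rebuild chromatin behind the fork. Many of these genes are targets of the E2F transcription factors, which the RB protein holds back until cyclin-dependent kinases act on it. Their RNA therefore rises towards S phase in cycling cells. In a culture, fewer cells in S phase and less of an RNA in each cell cannot be told apart on an array.

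Promoter letters of 4 of the genes are shown because they moved in ways described below: CDT1 was lower on the arrays with quinacrine, GINS2 and MCM6 fell with time in the combination arm, and CHAF1A was lower with quinacrine and rose with time. The letters are the 250 bases before the start of transcription in RefSeq on GRCh38.p14, 5′ to 3′ on the strand of the gene, with E2F words in capitals. The words searched, on both strands, were TTTCCCGC, TTTCGCGC, TTTGCCGC and TTTGGCGC, and words on opposite strands may overlap.
CDT1 (chr16:88803539-88803788, + strand): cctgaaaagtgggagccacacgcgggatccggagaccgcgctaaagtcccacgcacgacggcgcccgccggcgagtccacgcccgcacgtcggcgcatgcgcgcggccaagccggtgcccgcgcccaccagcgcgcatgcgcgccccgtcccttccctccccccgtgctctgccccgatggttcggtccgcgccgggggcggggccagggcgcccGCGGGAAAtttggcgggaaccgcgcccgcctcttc
GINS2 (chr16:85688955-85689204, - strand): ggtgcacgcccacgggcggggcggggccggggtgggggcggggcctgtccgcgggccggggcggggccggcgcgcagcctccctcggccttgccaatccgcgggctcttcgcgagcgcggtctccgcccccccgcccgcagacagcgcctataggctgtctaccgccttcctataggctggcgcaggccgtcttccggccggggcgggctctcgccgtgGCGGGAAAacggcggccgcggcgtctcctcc
MCM6 (chr2:135876444-135876693, - strand): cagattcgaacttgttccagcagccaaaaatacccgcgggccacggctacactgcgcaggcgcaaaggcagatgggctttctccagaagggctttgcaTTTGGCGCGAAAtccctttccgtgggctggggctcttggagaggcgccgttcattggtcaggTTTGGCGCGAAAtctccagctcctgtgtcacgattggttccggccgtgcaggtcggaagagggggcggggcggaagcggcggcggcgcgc
CHAF1A (chr19:4402390-4402639, + strand): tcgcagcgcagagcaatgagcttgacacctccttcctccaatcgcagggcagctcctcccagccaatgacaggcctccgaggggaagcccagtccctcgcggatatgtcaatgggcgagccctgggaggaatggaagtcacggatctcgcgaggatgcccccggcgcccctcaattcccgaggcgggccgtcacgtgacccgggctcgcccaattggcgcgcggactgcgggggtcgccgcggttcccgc

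The CDT1 and GINS2 stretches each held 1 E2F word, TTTCCCGC on the other strand, shortly before the start. MCM6 held 4 words as 2 overlapping pairs, each of TTTGGCGC on its own strand and TTTCGCGC on the other. CHAF1A held none of these words in this window. RefSeq windows of 250 bases before to 50 after the start were on hand for 32 of the 36 genes, and 20 of these 32 genes (62.5%) held an E2F word in at least 1 window. In these longer windows, of the 6 genes that passed between arrays with quinacrine and erlotinib, CDT1 and CDC6 held a word, that of CDC6 after the start, and CHAF1A, CHAF1B, SLBP and RFC4 held none. RRM2, which also fell with time in the combination arm, held no E2F word in its windows, so not all the falling genes that passed had one. Among 4805 tested genes with a window the share with an E2F word was 7.62%, and among all 27305 genes it was 3.99%. A list of 40 mitosis and G2/M genes, used below beside the replication genes, had the word in 8.82% of 34 genes with a window, and had the word TTTGAA in 70.6% of them, against 3.12% of the replication genes and 13.4% of tested genes. These are matches of letters and not measured binding.

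Values below are log2 levels shifted per array so that the median of the 5820 tested genes was the same on all 12 arrays; a difference of 1 is a doubling. The combination 6 h array stood apart. Its interquartile range over all rows was 2.04, against 2.26 to 2.88 on the other 11 arrays, and its shift was the largest in size (-0.29, against -0.085 to 0.09). After the shift its values over all tested genes were still 0.08 above erlotinib 6 h in the median. Fitted results that passed and turn on it are given with and without it. Of 10 markers of the line's origin, EPCAM (8.27 to 8.86), KRT7, KRT19, CDH1, EGFR (8.05 to 8.64) and NKX2-1 (5.70 to 6.98) passed the filter on these arrays, and KRT8, KRT18, SFTPB and NAPSA did not. Of 11 measured markers of leukocytes, endothelium and fibroblasts, CD68 passed (8.12 to 9.05) and the other 10 lay below the filter.

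**Figure D1:**
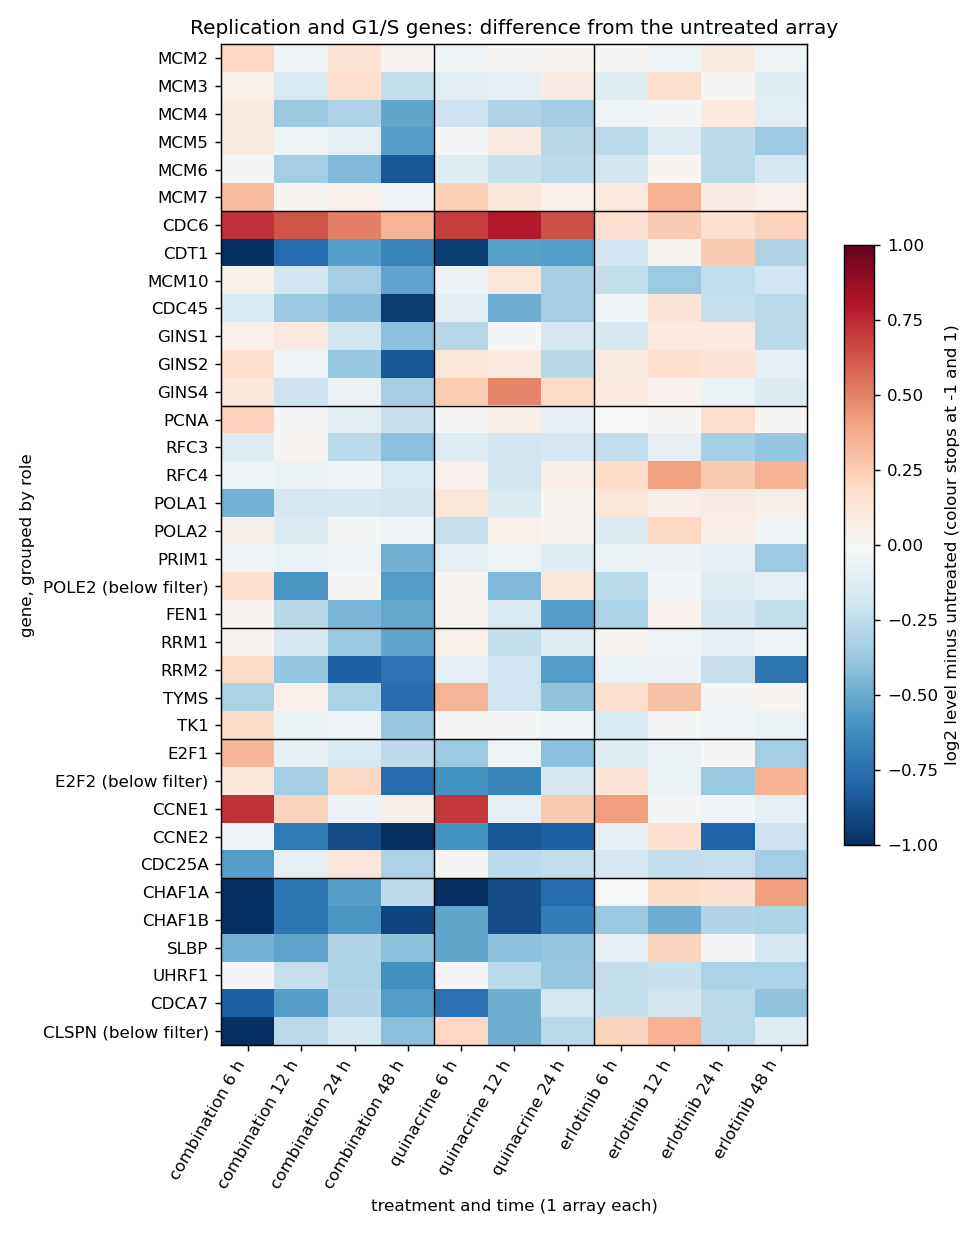
Difference of each of the 36 genes (down the page, grouped by role) from the untreated array on the 11 treated arrays (across, by arm and time), in centred log2 units; red is higher and blue lower, and colours stop at -1 and 1. CHAF1A and CDT1 are blue on all 7 arrays with quinacrine, CDC6 is red on them, and most rows are blue on the combination 48 h array.

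The first question was how the genes differed between cells with quinacrine and cells with erlotinib alone at matched times. Set against erlotinib, the arms with quinacrine had less RNA of both large subunits of the chromatin assembly factor CHAF1, of the licensing factor CDT1, of the histone mRNA binding protein SLBP and of the clamp loader subunit RFC4, and more RNA of the licensing factor CDC6. With the combination and quinacrine arms pooled, 5 of the 33 genes were lower and 1 was higher at an adjusted p under 0.05 (limma, treatment and time as factors), while 11.9% of the 5820 tested genes passed (6.01% higher and 5.89% lower). The count of 6 in 33 is not far above that background. The median over the 33 genes was -0.12, with 25 below 0, beside a median of 0.0069 over all tested genes, with 2817 of 5820 below 0. The combination alone against erlotinib gave 3 lower genes, CHAF1A, CDT1 and SLBP, where 7.54% of all tested genes passed (3.83% higher and 3.71% lower). Of these, SLBP did not hold: its call was lost in 18 of 23 alternatives, among them all 11 fits that left out 1 array (limma adjusted p up to 0.247), while CHAF1A and CDT1 passed in all 11. Quinacrine alone gave 2 lower, CHAF1A and CDT1, and 1 higher, CDC6, where 5.03% passed (2.56% higher and 2.47% lower). There CHAF1A passed in 8 of the 11 fits that left out 1 array, CDT1 in 4 and CDC6 in 3, and the number called among all tested genes ran between 30 without quinacrine 12 h and 476 without combination 6 h. These 3 comparisons share the erlotinib arrays and part of the others, so they are not separate evidence.

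Among the licensing and helicase activation genes, CDT1 helps to load the MCM ring at origins and is removed once S phase begins. CDT1 had 6.88, 7.33, 7.55 and 7.44 in the combination at 6, 12, 24 and 48 h and 7.16, 7.56 and 7.54 in quinacrine at 6, 12 and 24 h, against 7.91, 8.13, 8.36 and 7.80 in erlotinib and 8.10 in untreated cells. All 7 arrays with quinacrine lay below all 5 without it, and the combination 6 h array was the lowest. The arms averaged 7.30 ± 0.29 in the combination (SD, n = 4), 7.42 ± 0.23 in quinacrine (n = 3) and 8.05 ± 0.25 in erlotinib (n = 4). The difference between the arrays with quinacrine and erlotinib was -0.70 (SE 0.11, limma adjusted p = 0.00432), a 1.62-fold lower level. The combination was 1.03, 0.79, 0.81 and 0.36 log2 units below erlotinib at 6, 12, 24 and 48 h, so the gap was smallest at 48 h. Without the combination 6 h array the difference was -0.67 (limma adjusted p = 0.00471; range over all alternatives 0.00144 to 0.0656), and centring on all rows was the alternative that ended the call.

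CDC6, which works beside CDT1 in loading the ring, went the other way. It had 7.71, 7.62, 7.49 and 7.33 in the combination and 7.68, 7.78 and 7.63 in quinacrine, against 7.16, 7.25, 7.16 and 7.22 in erlotinib and 6.99 in untreated cells. All 7 arrays with quinacrine lay above all 5 without it, and the untreated array was the lowest. The difference was 0.41 (SE 0.090, limma adjusted p = 0.0186), a 1.32-fold higher level. In the combination arm CDC6 was lower at 24 h than at 12 h and lowest at 48 h, and its lead over erlotinib was 0.55, 0.38, 0.33 and 0.11 at 6, 12, 24 and 48 h. Leaving out erlotinib 6, 12 or 24 h or quinacrine 12 or 24 h each ended the call for CDC6 (limma adjusted p over all alternatives 0.0107 to 0.154).

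Of the other licensing and activation genes, MCM10, CDC45, GINS1, GINS2 and GINS4, none passed in this comparison. CDC45, which joins the ring to make the active helicase, had a difference of -0.34 (SE 0.11, limma adjusted p = 0.0741). The 6 genes of the MCM ring had differences between -0.29 for MCM4 and 0.10 for MCM5, with a median of -0.05, and none passed. MCM7, the highest of them on the arrays, had 9.95, 9.67, 9.69 and 9.60 in the combination and 9.88, 9.75 and 9.69 in quinacrine, against 9.74, 9.99, 9.72 and 9.68 in erlotinib and 9.64 in untreated cells. The arms overlapped throughout for MCM7.

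Among the genes of the clamp, the polymerases and flap removal, RFC4 is a subunit of the loader that places PCNA on DNA. RFC4 had 7.20, 7.17, 7.21 and 7.09 in the combination and 7.28, 7.06 and 7.31 in quinacrine, against 7.42, 7.64, 7.50 and 7.59 in erlotinib and 7.24 in untreated cells. The arrays with quinacrine lay below all 4 erlotinib arrays but on both sides of the untreated array, so it was erlotinib that stood apart from the rest. The difference was -0.35 (SE 0.094, limma adjusted p = 0.0387), and 15 of 22 alternatives ended the call, with adjusted p between 0.0234 and 0.256. PCNA, the sliding clamp itself, had 9.11, 8.87, 8.77 and 8.65 in the combination and 8.87, 8.94 and 8.79 in quinacrine, against 8.88, 8.89, 9.05 and 8.89 in erlotinib and 8.88 in untreated cells. The arms overlapped for PCNA, and it did not pass.

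The widest gap was that of CHAF1A, among the genes of chromatin assembly and histone supply. CHAF1A and CHAF1B encode subunits of the chaperone that deposits histones H3 and H4 on newly made DNA. CHAF1A had 4.81, 5.59, 5.76 and 6.05 in the combination and 5.31, 5.42 and 5.54 in quinacrine, against 6.31, 6.49, 6.46 and 6.72 in erlotinib and 6.31 in untreated cells. No array with quinacrine reached any array without it. The arms averaged 5.55 ± 0.53 in the combination (SD, n = 4), 5.42 ± 0.12 in quinacrine (n = 3) and 6.49 ± 0.17 in erlotinib (n = 4), and the difference was -0.95 (SE 0.13, limma adjusted p = 0.00297), a 1.93-fold lower level. It passed in all 22 alternatives tried, among them the fit without combination 6 h (-0.87, limma adjusted p = 0.000803; range over all alternatives 0.000803 to 0.0436).

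CHAF1B had 5.29, 5.63, 5.77 and 5.43 in the combination and 5.83, 5.46 and 5.66 in quinacrine, against 5.98, 5.86, 6.06 and 6.05 in erlotinib and 6.35 in untreated cells. The groups did not overlap here either, though quinacrine 6 h came within 0.03 of erlotinib 12 h. The difference of -0.40 (SE 0.11, limma adjusted p = 0.0497) lay just inside the threshold, and 17 of 22 alternatives ended the call (limma adjusted p 0.0326 to 0.332).

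SLBP binds the stem loop at the end of replication-dependent histone mRNAs and is needed for their processing. SLBP had 8.10, 8.04, 8.27 and 8.16 in the combination and 8.05, 8.16 and 8.18 in quinacrine, against 8.48, 8.79, 8.56 and 8.40 in erlotinib and 8.57 in untreated cells. Its groups did not overlap, and erlotinib 12 h was the highest array. The difference was -0.43 (SE 0.096, limma adjusted p = 0.0185), with adjusted p between 0.00839 and 0.149 over the alternatives. Without erlotinib 12 h, erlotinib 24 h, quinacrine 12 h or quinacrine 24 h the call was lost.

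UHRF1, which brings the maintenance DNA methyltransferase to replicated DNA, had 9.00, 8.78, 8.70 and 8.40 in the combination and 9.00, 8.74 and 8.63 in quinacrine, against 8.77, 8.79, 8.69 and 8.69 in erlotinib and 9.01 in untreated cells. Its arms overlapped. CDCA7, a MYC and E2F target with a role in nucleosome remodelling, ranged over all arrays between 5.99 at combination 6 h and 6.81 in untreated cells and did not pass.

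**Figure D2:**
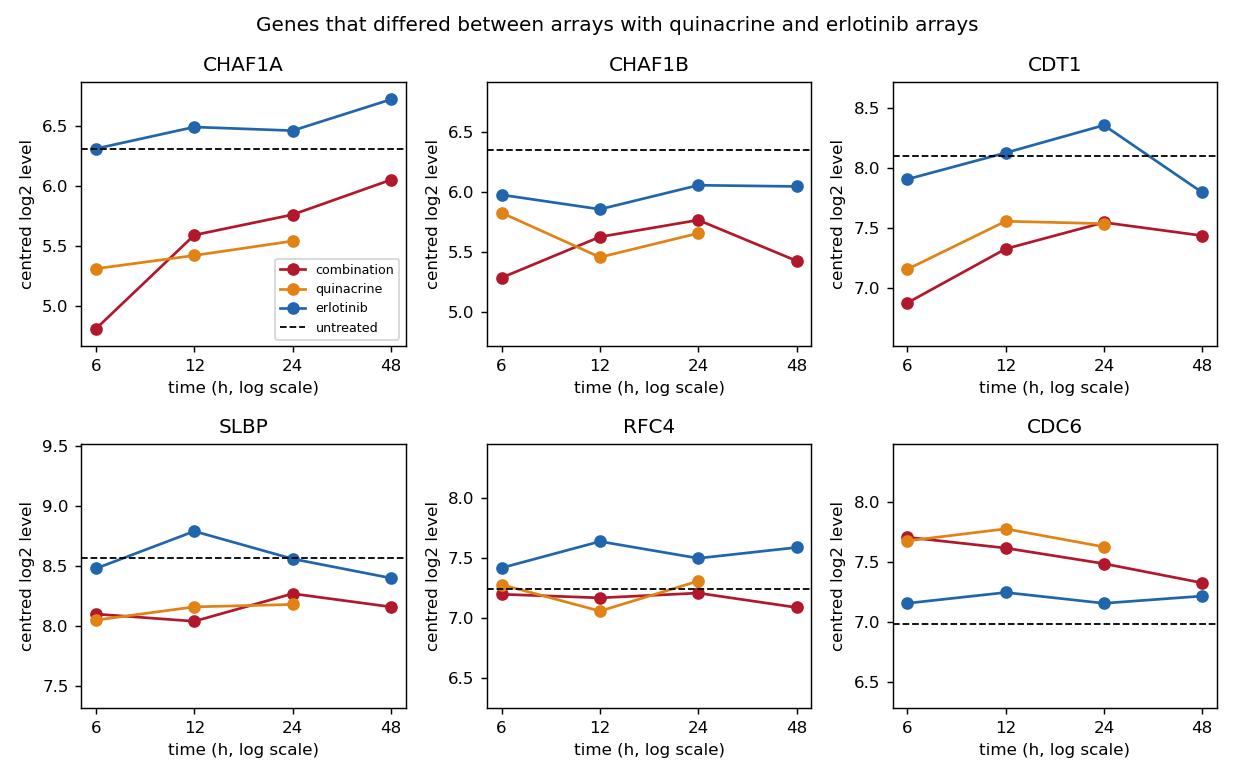
Centred log2 levels (vertical axes, each spanning the same range) of CHAF1A, CHAF1B, CDT1, SLBP, RFC4 and CDC6 against time in hours (log scale), for the combination, quinacrine and erlotinib arms, 1 array per point, with the untreated array as a dashed line. The arms with quinacrine run below erlotinib for the first 5 genes and above it for CDC6.

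Over all 12 arrays, 4 of the 33 genes (CDT1, CHAF1A, CHAF1B and SLBP) were lower on all 7 arrays with quinacrine than on the 5 without it, and CDC6 was higher. Among all tested genes 4.05% were lower in this way and 3.92% higher. On the values as deposited 4 of the 33 genes were lower and 1 higher in this way (261 and 136 of all 5820), after cyclic loess 5 and 1 (284 and 220) and after centring on all rows 3 and 0 (195 and 59), so CDC6 no longer separated there.

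Other genes of DNA replication and of the E2F and RB circuit, 59 listed and 45 tested, were compared in the same way. The arms with quinacrine were lower in 5 of the 45 and higher in none, where 5.89% of all tested genes were lower and 11.9% passed in either direction, so that this count too is near the background. The 5 were DTYMK, the kinase that makes dTDP (-0.79, SE 0.095, limma adjusted p = 0.0016), POLE, the catalytic subunit of the leading strand polymerase (-0.55, SE 0.093, limma adjusted p = 0.00669), DBF4, the activator of the kinase that fires origins (-0.48, limma adjusted p = 0.00708), the helicase and nuclease DNA2 (-0.47, limma adjusted p = 0.0191) and TFDP1, the partner of E2F in DNA binding (-0.38, limma adjusted p = 0.0307). The 35 tested mitosis and G2/M genes had 1 lower, NUF2 of the kinetochore (-0.43, limma adjusted p = 0.0371), and none higher, beside the same background. All 6 passed without combination 6 h, but without combination 48 h DNA2, TFDP1 and NUF2 did not (limma adjusted p = 0.0506, 0.0574 and 0.092). The medians were -0.079 for the other replication genes and -0.10 for the mitosis genes, near the -0.12 of the 33 genes.

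DTYMK had 5.61, 5.65, 5.73 and 5.87 in the combination and 5.42, 5.69 and 5.51 in quinacrine, against 6.44, 6.51, 6.42 and 6.30 in erlotinib and 6.47 in untreated cells, so its arms did not overlap. GMNN, which encodes the CDT1 inhibitor geminin, also lay lower on all 7 arrays with quinacrine, at 5.33, 5.67, 5.77 and 5.59 in the combination and 5.88, 5.55 and 5.88 in quinacrine, against 5.99, 6.47, 5.94 and 5.92 in erlotinib and 6.19 in untreated cells. The GMNN gap was as small as 0.04 between arrays, and GMNN did not pass in the fit.

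**Figure D3:**
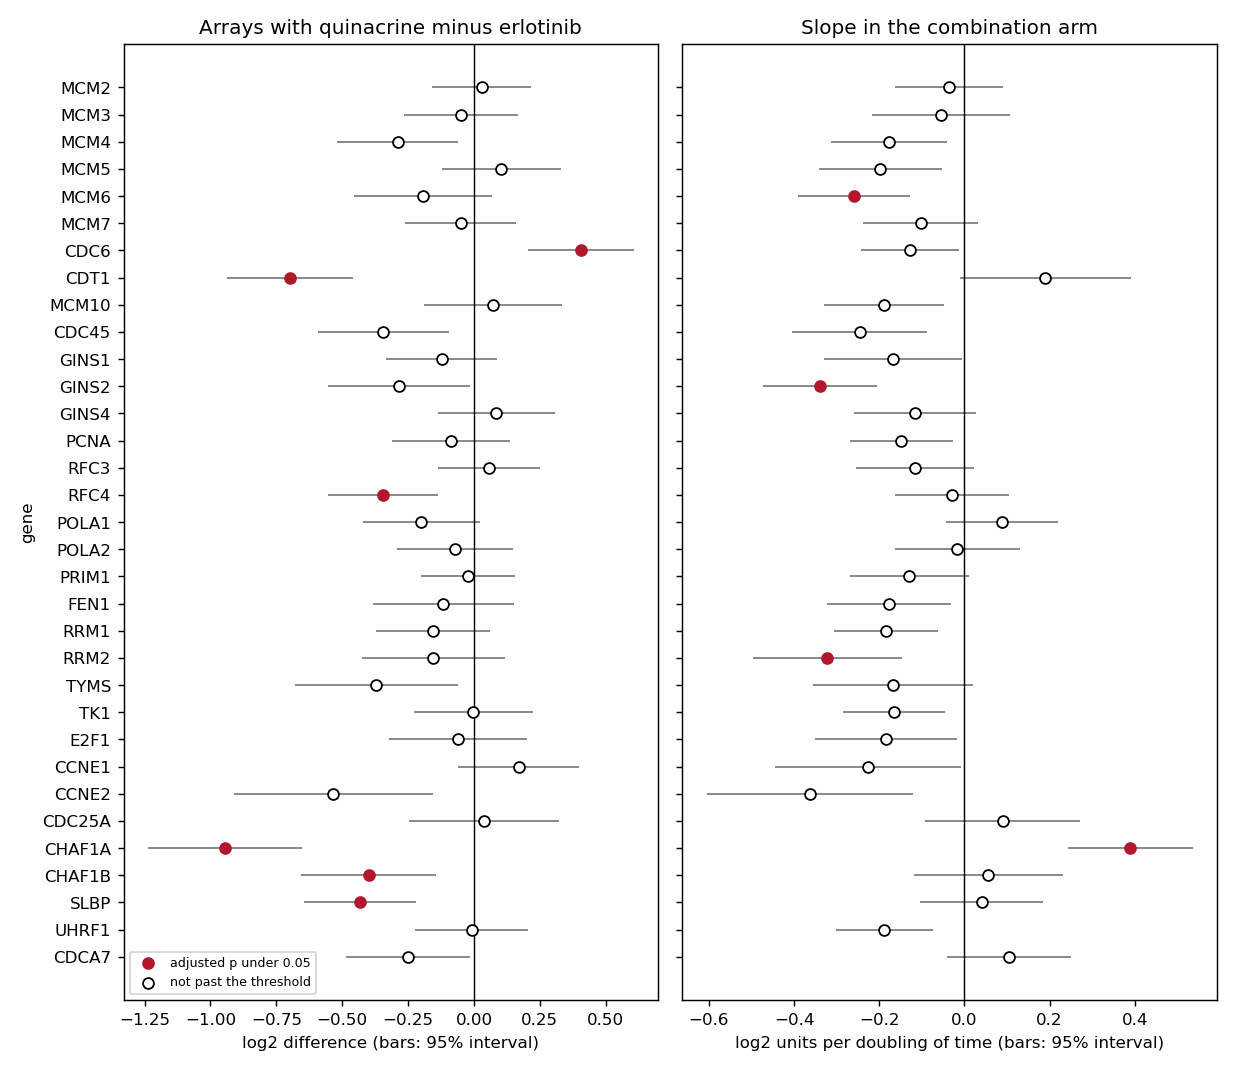
Left, log2 difference between arrays with quinacrine and erlotinib arrays; right, log2 change per doubling of time in the combination arm, for the 33 tested genes, with 95% intervals from limma. Filled points passed at an adjusted p under 0.05: 6 on the left, led by CHAF1A at -0.95, and 4 on the right, where CHAF1A lies at 0.39 and GINS2, MCM6 and RRM2 below 0.

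The combination and quinacrine arms were then set against each other at matched times, to see what erlotinib added to quinacrine. No gene of the 33, and none of the 5820 tested, passed (limma; 1 of the 33 and 108 of the 5820 had an unadjusted p under 0.05). The median of the 33 genes was -0.0135. The gene with the smallest p was GINS4, a subunit of the GINS complex, with 5.12, 4.80, 4.95 and 4.68 in the combination against 5.26, 5.50 and 5.20 in quinacrine, a difference of -0.38 (95% interval -0.65 to -0.10, limma adjusted p = 0.999; -0.45 without combination 6 h). E2F1, an activating E2F, had 8.60, 8.19, 8.12 and 8.01 in the combination against 7.91, 8.23 and 7.86 in quinacrine. The difference for E2F1 was 0.30 (interval -0.02 to 0.63), and 0.15 without combination 6 h. POLA1, the catalytic subunit of the priming polymerase, had 5.61, 5.91, 5.92 and 5.90 in the combination against 6.20, 5.94 and 6.10 in quinacrine (-0.25, interval -0.53 to 0.02; -0.13 without combination 6 h). For CHAF1A and CDT1 the combination and quinacrine arms overlapped.

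The next question was what happened with time. Most of the genes had a low level at 48 h in the combination. At 48 h, 27 of the 33 genes were lower in the combination than in erlotinib and 5 were higher, with a median of -0.24 beside -0.02 over all tested genes. Of all 5820 tested genes 3008 were lower and 2716 higher. Of the 33, 8 were lower by at least 0.5 log2 units (1.41-fold) and 0 higher by as much, whereas 9.09% of all tested genes were lower and 9.02% higher by as much between these arrays. The median stayed between -0.25 and -0.22 on the values as deposited, after centring on all rows and after cyclic loess. These 2 arrays had the same shift (0.08) and near-equal medians over all rows (1.41 and 1.42). A shift of whole arrays could therefore hardly change their difference, and of these scalings only cyclic loess could. The comparison is of 2 single arrays and has no test.

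Against the untreated array, combination 48 h had 15 of the 33 genes lower by at least 0.5 and 0 higher as centred here, where 9.59% of all tested genes were lower and 9.04% higher. The count of 15 depended on the scaling, as the shifts were 0.08 at combination 48 h and -0.005 for untreated. On the deposited values MCM4 (8.60 against 9.03) and RRM1 (6.62 against 7.05), among others, were less than 0.5 apart. The median of the 33 at combination 48 h was -0.415 as centred here, and -0.33, -0.27 and -0.39 on the deposited values, after centring on all rows and after cyclic loess. As centred here, the median against untreated was -0.055, -0.145 and -0.245 in quinacrine at 6, 12 and 24 h. It was 0.035, -0.145 and -0.255 in the combination at these times. Quinacrine had no 48 h array, so whether it alone reaches the level of combination 48 h cannot be told. By role, the median against untreated at combination 48 h was -0.625 for nucleotide supply, -0.555 for chromatin and checkpoint genes, -0.525 for licensing and helicase activation, -0.375 for the MCM ring, -0.285 for G1/S regulators and -0.225 for the clamp, polymerases and flap removal. The combination 48 h array was the lowest of all 12 for 18 of the 33 genes (54.5%), against 15.2% of all tested genes. That count was 13 on the deposited values (8.51% of all tested genes), 7 after centring on all rows (4.05%) and 16 after cyclic loess (11.4%).

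**Figure D4:**
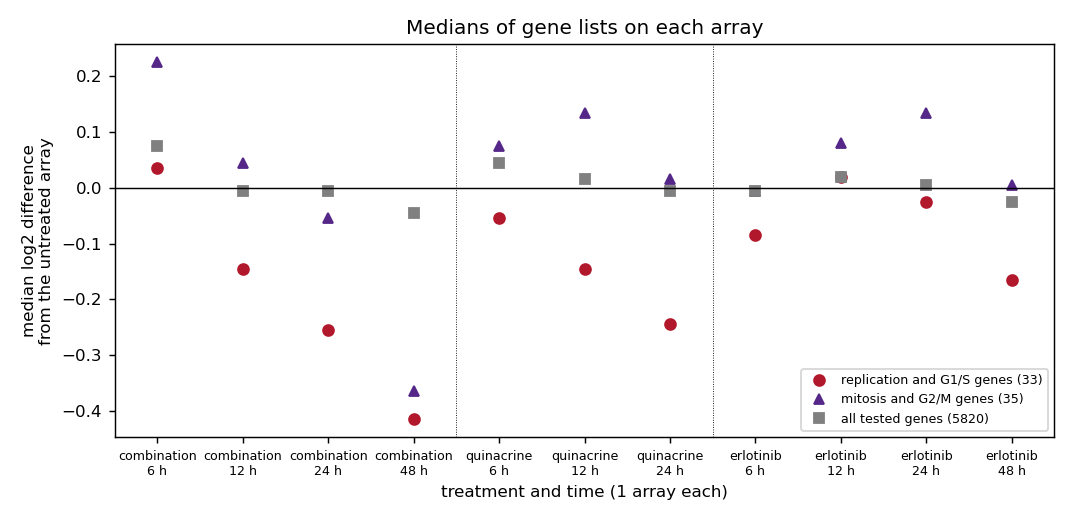
Median difference from the untreated array (log2 units) over the 33 replication genes, with 35 mitosis and G2/M genes and all tested genes beside them, on each treated array by arm and time. The median of the replication genes reaches -0.415 at combination 48 h and stays within -0.165 to 0.02 in the erlotinib arm. In the quinacrine arm, with no 48 h array, it is -0.245 at 24 h, near the -0.255 of combination 24 h. All tested genes stay near 0.

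Within the combination arm, the step between 24 and 48 h was common to most of the genes. At 48 h, 30 of the 33 were lower than at 24 h and 3 higher, with a median of -0.19 (-0.19 to -0.14 under the other scalings, beside -0.03 for all tested genes). Against 12 h the median at 48 h was -0.22 (-0.22 to -0.19 under the other scalings). The shifts of combination 12, 24 and 48 h were 0.08, 0.07 and 0.08, so centring could hardly move these medians. In the erlotinib arm the median between 24 and 48 h was -0.07, and it was 0.05 after centring on all rows. Between 12 and 48 h in erlotinib it was -0.215 as centred here, -0.05 on the deposited values, 0.11 after centring on all rows and -0.15 after cyclic loess, so its sign there followed the scaling. Falls at both steps after 12 h were seen for 15 of the 33 genes in the combination (27.1% of all tested genes) and for 15 of the 33 in erlotinib (24.5% of all tested genes).

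The start of the combination arm depended on how the 6 h array was scaled. The median of the 33 genes at combination 6 h was 0.035 above untreated as centred here, and -0.25, -0.41 and -0.10 on the deposited values, after centring on all rows and after cyclic loess. The change between 6 and 48 h was -0.44 as centred here, -0.07 on the deposited values, 0.15 after centring on all rows and -0.22 after cyclic loess, beside -0.11, 0.26, 0.48 and 0.006 for all tested genes. The median of the 33 lay below that of all tested genes under all 4 scalings, but its own sign turned. A level lower at each later time of the combination was seen for 12 of the 33 genes as centred here (16.7% of all tested genes), 2 on the deposited values (2.97%), 1 after centring on all rows (0.653%) and 9 after cyclic loess (11.5%).

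A slope per doubling of time in the combination arm passed for 4 of the 33 genes (limma, a slope for each arm), where 7.66% of all tested genes passed (3.95% rising and 3.71% falling). GINS2, MCM6 and RRM2 fell and CHAF1A rose. The median slope of the 33 was -0.15, beside -0.03 for all tested genes, and it was -0.038 on the deposited values, 0.032 after centring on all rows and -0.067 after cyclic loess. All 4 calls were lost without combination 6 h and likewise without combination 48 h, and the number called among all 5820 genes was 4 without combination 6 h and 85 without combination 48 h, against 446 with both. In the erlotinib arm no gene of the 33 passed, against 0.137% of all tested genes (limma; 1 of the 33 had an unadjusted p under 0.05), and the smallest adjusted p was that of RRM2 (-0.21, SE 0.078, limma adjusted p = 0.358). The difference in slope between combination and erlotinib passed for none of the 33 and none of the 5820 (limma; 5 of the 33 and 1000 of the 5820 had an unadjusted p under 0.05), so a steeper fall in the combination was not shown by this test.

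GINS2, another subunit of the GINS complex that joins CDC45 and the MCM ring, had 7.90, 7.68, 7.35 and 6.88 at 6, 12, 24 and 48 h in the combination and 7.85, 7.83 and 7.45 in quinacrine, against 7.82, 7.90, 7.87 and 7.63 in erlotinib and 7.73 in untreated cells. Combination 48 h was the lowest array, and quinacrine and the combination were both lower at 24 h than erlotinib was. The slope in the combination was -0.34 per doubling (SE 0.060, limma adjusted p = 0.0189; range over all alternatives 0.00697 to 0.261). The slope without combination 6 h was -0.40 (limma adjusted p = 0.153). With all treated arrays, the difference between the combination and erlotinib slopes was -0.28 (SE 0.085, limma adjusted p = 0.168).

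MCM6, a subunit of the helicase ring, had 7.81, 7.49, 7.39 and 6.98 in the combination and 7.71, 7.61 and 7.57 in quinacrine, against 7.65, 7.85, 7.56 and 7.66 in erlotinib and 7.83 in untreated cells. At 48 h it was lower in the combination than on any other array. The slope was -0.26 (SE 0.059, limma adjusted p = 0.0323; range over all alternatives 0.0158 to 0.541), and it was -0.255 without combination 6 h (limma adjusted p = 0.353). As centred here, the other 5 genes of the ring had slopes below 0 in the combination and did not pass. At combination 48 h MCM5 had 8.19 and MCM4 8.52, the lowest values of either gene on any array, while MCM2 had 8.59 and stayed within its range on the other arrays (8.52 to 8.77). On the deposited values MCM2 (8.48 at combination 6 h and 8.67 at 48 h), MCM3 (7.82 and 7.90) and MCM7 (9.66 and 9.68) were higher at 48 h. MCM4 (8.84 and 8.60) and MCM5 (8.54 and 8.27) were lower there. The direction for MCM2, MCM3 and MCM7 thus followed the scaling of the 6 h array.

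RRM2 encodes the small subunit of ribonucleotide reductase, which makes deoxynucleotides and is limiting in S phase. It had 8.37, 7.79, 7.36 and 7.44 in the combination and 8.08, 7.98 and 7.62 in quinacrine, against 8.11, 8.12, 7.95 and 7.46 in erlotinib and 8.18 in untreated cells. The last array was below the first in all 3 arms, with the low level reached by 24 h in the combination and by 48 h in erlotinib. The slope shared by the 3 arms was -0.26 (SE 0.050, limma adjusted p = 0.0221; range over all alternatives 0.00849 to 0.147), and that of the combination alone was -0.32 (SE 0.078, limma adjusted p = 0.0384; range over all alternatives 0.018 to 0.586). Without combination 6 h the shared slope was -0.21 (limma adjusted p = 0.0836) and the combination slope -0.175 (limma adjusted p = 0.586).

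The other genes of nucleotide supply were lowest at combination 48 h. TK1, the thymidine kinase of cycling cells, had 10.17, 9.92, 9.94 and 9.61 in the combination and 10.00, 9.97 and 9.95 in quinacrine, against 9.84, 9.97, 9.95 and 9.92 in erlotinib and 9.99 in untreated cells. Only its combination 6 h and 48 h arrays left the narrow range of the others. TYMS, which makes dTMP, had 7.06, 7.43, 7.07 and 6.62 in the combination and 7.72, 7.18 and 6.98 in quinacrine, against 7.55, 7.67, 7.37 and 7.40 in erlotinib and 7.38 in untreated cells. RRM1, the large subunit of the reductase, had 7.09, 6.89, 6.69 and 6.54 in the combination, against 7.08, 7.01, 6.96 and 7.01 in erlotinib. None of these 3 passed in any comparison.

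**Figure D5:**
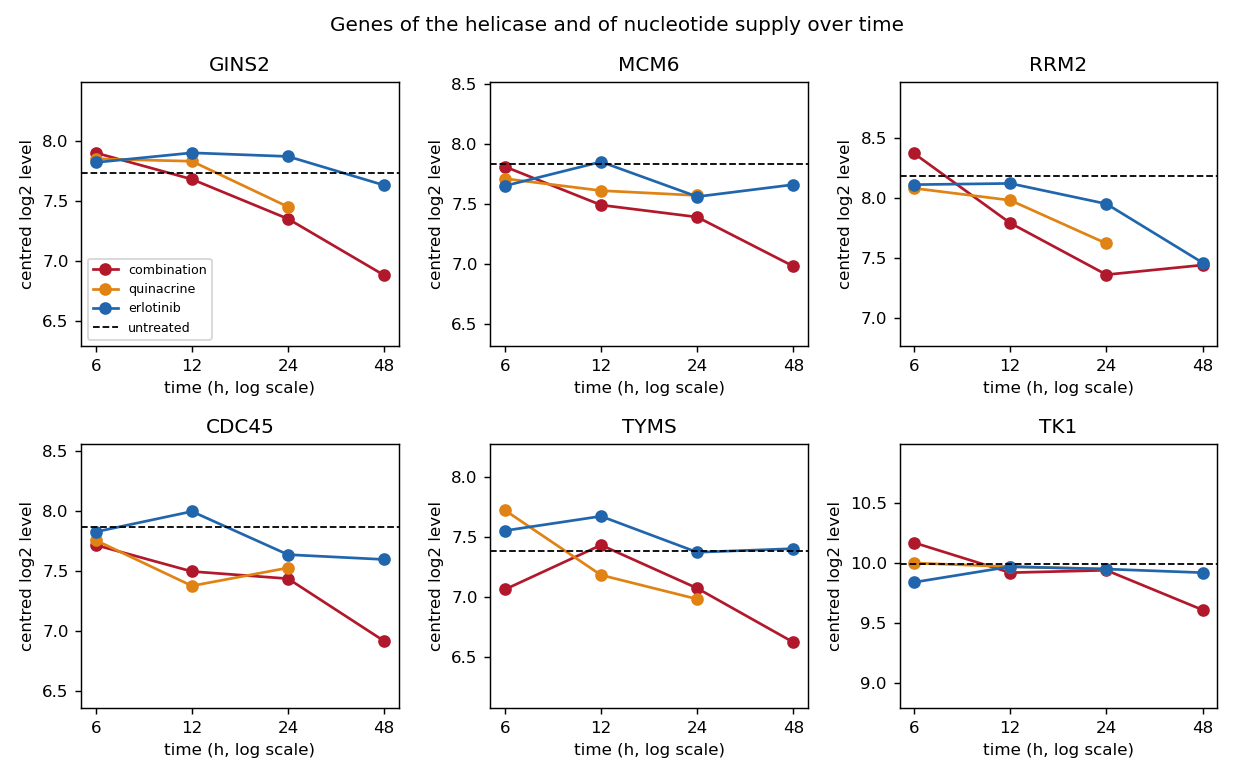
Centred log2 levels (vertical axes, each spanning the same range) of GINS2, MCM6, RRM2, CDC45, TYMS and TK1 against time in hours (log scale), for the combination, quinacrine and erlotinib arms, 1 array per point, with the untreated array as a dashed line. At 48 h the combination lies below erlotinib for all 6 genes, by a hair for RRM2 (7.44 and 7.46).

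As centred here, 26 of the 33 genes had slopes below 0 in the combination and 7 above 0, beside 3414 and 2405 of all 5820 tested genes. A slope below 0 was thus the more common one among all genes too. Among the 7 above 0 were 4 of the 5 chromatin and checkpoint genes. CHAF1A had the steepest rise and was the only rising gene that passed. Its level in the combination was higher at each later time, with a slope of 0.39 (SE 0.066, limma adjusted p = 0.0157; range over all alternatives 0.00727 to 0.342), and its slope shared by the 3 arms was 0.23 (SE 0.056, limma adjusted p = 0.0432; range over all alternatives 0.0266 to 0.215). Its low start at combination 6 h carried much of this: without that array the combination slope was 0.23 (limma adjusted p = 0.342) and the shared slope 0.14 (limma adjusted p = 0.109). Quinacrine (5.31, 5.42 and 5.54) was also higher at each later time, and both arms stayed below untreated cells throughout. CDT1 likewise was lowest at 6 h in both arms with quinacrine, and its combination slope of 0.19 did not pass. That slope leaned on the 6 h array, as CDT1 had 7.33, 7.55 and 7.44 at 12, 24 and 48 h.

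With a slope shared by the 3 arms, 2 of the 33 genes passed, RRM2 and CHAF1A, where 3.97% of all tested genes did (2.16% rising and 1.8% falling). The median shared slope was -0.079, beside -0.021 for all tested genes. It was -0.0125 on the deposited values, 0.0329 after centring on all rows and -0.0304 after cyclic loess.

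CDC45 had 7.72, 7.50, 7.44 and 6.92 in the combination and averaged 7.40 ± 0.34 there (SD, n = 4), 7.56 ± 0.19 in quinacrine (n = 3) and 7.77 ± 0.18 in erlotinib (n = 4), against 7.87 in untreated cells. Combination 48 h was the lowest array. Its slope in the combination was -0.25 (SE 0.071, limma adjusted p = 0.0599).

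Of the G1/S regulators, CCNE1 and CCNE2 encode the E cyclins that activate CDK2. CCNE1 had 6.88, 6.38, 6.10 and 6.22 in the combination and 6.87, 6.08 and 6.42 in quinacrine, against 6.58, 6.14, 6.13 and 6.07 in erlotinib and 6.16 in untreated cells. Its highest array was the 6 h array in each arm, and its shared slope was -0.20 (SE 0.060, limma adjusted p = 0.0813). CCNE2 had 5.56, 4.89, 4.71 and 4.41 in the combination and 5.00, 4.75 and 4.78 in quinacrine, against 5.51, 5.76, 4.80 and 5.39 in erlotinib and 5.60 in untreated cells, and did not pass. E2F1 had 8.15, 8.20, 8.28 and 7.93 in erlotinib and 8.27 in untreated cells, so its values in all arms overlapped. CDC25A, the phosphatase that activates CDK2, ranged between 5.74 at combination 6 h and 6.40 at combination 24 h.

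Mitosis and G2/M genes were also low at combination 48 h. Their median was -0.39 against erlotinib 48 h and -0.44 against combination 12 h, and combination 48 h was the lowest array for 26 of the 35 (74.3%). The slope in the combination passed for 5 of the 35, all falling, MKI67 (-0.34), CCNA2 (-0.30), ANLN (-0.30), PLK1 (-0.27) and NUSAP1 (-0.26), at limma adjusted p between 0.0152 and 0.0461, where 3.71% of all tested genes fell and 3.95% rose. MKI67, the proliferation marker, had 9.11, 8.71, 8.46 and 8.06 in the combination and 8.76, 8.82 and 8.47 in quinacrine, against 8.77, 8.78, 8.71 and 8.85 in erlotinib and 8.74 in untreated cells. Of the 45 other replication genes 3 fell in the combination, ASF1B, RB1 and TOPBP1, and 1 rose, CHTF18, and their median at 48 h against erlotinib 48 h was -0.14. None of these 9 slopes passed without combination 6 h (limma adjusted p 0.168 to 0.493) or without combination 48 h (0.107 to 0.315). Whether the replication and mitosis genes fell by different amounts was not tested.

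Against the untreated array, the fit of group means over all 12 arrays called none of the 33 genes in any arm, where 0.103% of all tested genes passed for the combination, 0.103% for quinacrine and 0% for erlotinib (limma; 6, 5 and 0 of the 33 had an unadjusted p under 0.05 in the combination, quinacrine and erlotinib arms, and 174 of the 5820 in erlotinib). The 3 comparisons share that lone array, which is assumed to vary like the treated ones. The medians were -0.24 for the combination, -0.098 for quinacrine and -0.046 for erlotinib. The smallest adjusted p was that of CDC6 in quinacrine (0.71, 95% interval 0.36 to 1.07, limma adjusted p = 0.118), and in the combination CDC6 differed by 0.55 (limma adjusted p = 0.193) and CHAF1B by -0.82 (95% interval -1.24 to -0.39, limma adjusted p = 0.135). In erlotinib RFC4 (0.30), CHAF1B (-0.36) and RFC3, a second subunit of the clamp loader (-0.26), had the smallest p, at a limma adjusted p of 0.998 each. RFC3 had 8.18, 8.34, 8.05 and 7.89 in the combination and 8.18, 8.13 and 8.14 in quinacrine, against 8.06, 8.23, 7.98 and 7.92 in erlotinib and 8.31 in untreated cells, with overlap between arms.

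The remaining tested genes are given by their spread. MCM3 ranged over the 12 arrays by 0.41, MCM10, an initiation factor that binds the helicase, by 0.65, GINS1 by 0.52, POLA2 of the priming polymerase by 0.43, PRIM1, the primase subunit, by 0.47 and FEN1, the flap endonuclease, by 0.58. None of them passed in any comparison. MCM3, MCM10, GINS1 and PRIM1 had their lowest value at combination 48 h. Of the genes below the filter, POLE2 (4.53 to 5.28), E2F2 (2.29 to 3.41) and CLSPN, the checkpoint adaptor claspin (3.64 to 5.09), were fitted with no filter and none passed, with the lowest array at combination 12 h for POLE2, combination 48 h for E2F2 and combination 6 h for CLSPN.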

How the data were processed

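RNA of 12 samples was measured on Affymetrix Human Gene 2.1 ST arrays. Per the series design text and the submitters' processing notes, the authors ran RMA in Affymetrix Expression Console 1.30 (background correction, quantile normalization, log2) and annotated the rows for hg19; the deposited values are log2 levels. Of 53617 rows, 23871 carried 1 gene symbol in the platform annotation, 1842 several and 27904 none; rows with several were not named, and 22569 named rows were matched to RefSeq, which changed 90 symbols. Arrays have no read depth, and their number limits the precision.

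From these values each array was shifted to a common median over the 5820 genes with a mean of at least 5 (the row of the highest mean per gene). limma 3.58.1 in R 4.3.3 (lmFit, eBayes) was fitted to all 5820 genes with Benjamini-Hochberg adjustment at 0.05. Treatments were compared on the 11 treated arrays by factors for treatment and time (5 residual degrees of freedom), each arm with untreated by group means on 12 arrays (8), and time by a slope per log2 time shared by the arms (7) or for each arm (5). The residual of these fits is departure from the model, not replicate error. Alternatives changed the scaling, the filter, the row per gene, eBayes settings, array weights, the time term and the arrays used, each array being left out in turn.

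Values on every array are given for genes past the threshold in a comparison, the 3 with the smallest p in each, and the gene of the highest mean in each role; further genes were added after their values were seen (CDC45, TYMS, RRM1, CCNE2, DTYMK, GMNN and MKI67). The genes, lists, roles and E2F words were chosen with earlier results of these data known.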

Additional observations from a re-analysis of the deposited data

Results flagged for a closer look

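In the arms of 4 arrays, a highest or lowest array far from the other 3 of its arm was looked for in each of the 36 genes. Of 72 such groups 5 were picked out. PCNA stood at 9.05 on erlotinib 24 h, with the other erlotinib arrays at 8.88 to 8.89. POLA1 was 5.61 on combination 6 h, below the others of that arm at 5.90 to 5.92. PRIM1 was low at 48 h in both arms that have this time, at 7.29 in the combination (others 7.70 to 7.73) and at 7.41 in erlotinib (others 7.68 to 7.71). CCNE1 was high on erlotinib 6 h at 6.58, above the others at 6.07 to 6.14, and 6 h was also its highest time in the combination and quinacrine arms. Chance alone picks out about 1 in 20 such groups, and the arrays of an arm differ in time, so a late or early change appears here too.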

How the results depend on the processing

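Counts of the 33 genes called changed with the processing as follows. For the combination against erlotinib (3), the count was 0 after centring on all rows, 1 with no filter, 5 with a robust trended eBayes and 5 with no time term. For quinacrine against erlotinib (3) it was 0 on the deposited values, after centring on all rows and with no filter. For arrays with quinacrine against erlotinib (6) it was 1 after centring on all rows, 2 with no filter and 2 when combination 6 h and erlotinib 12 h were left out. Array weights gave 4 for the combination and 3 for quinacrine against untreated (0 each), beside a background given below. For the shared slope (2) it was 1 on the deposited values, 0 after centring on all rows, 0 with no filter, 1 with a mean of at least 4, 5 with robust eBayes, 1 with array weights, and 0 without combination 6 h and erlotinib 12 h, with 6, 12 and 24 h alone or with time in hours. For the combination slope (4) it was 1 on the deposited values and after centring on all rows, 2 after cyclic loess, 0 with no filter, 10 with robust eBayes, 0 without combination 6 h and erlotinib 12 h, 0 with 6, 12 and 24 h alone and 1 with time in hours. The cause of each change was not tested. Calls among all genes fitted moved too in these alternatives. Against untreated they reached 696 for the combination and 471 for quinacrine (6 each in the main fits). Against erlotinib they ran 44 to 620 for the combination (439), 19 to 594 for quinacrine (293) and 142 to 808 for both pooled (693). They ran 17 to 373 for the shared slope (231) and 6 to 730 for the combination slope (446). A higher count of the 33 genes is therefore not by itself particular to them. Leaving out 1 array at a time gave 2 to 3 for the combination against erlotinib (SLBP among them in none), 0 to 4 for quinacrine against erlotinib, 2 to 8 for arrays with quinacrine, 0 to 8 for the shared slope, 0 to 4 for the combination slope and 0 to 0 for the other comparisons. None of the called genes changed sign in the alternatives tried. CHAF1A (22 of 22) and CDT1 (21 of 22) kept their calls for arrays with quinacrine most often. The labels give no replicate numbers, so arrays could be matched by time only. Time is a term of the treatment fits, and an alternative used only the arrays of the groups compared at matched times. Without the untreated array no comparison with it can be made, and array weights stopped before convergence in some fits.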
